A study of Mus musculus with 2 samples.

Results

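Barcodes with a high mitochondrial share were the 462 of 22178 deposited cell barcodes in which at least 10% of the unique molecular identifiers (UMIs, each a counted RNA molecule) came from genes with symbols starting mt-. They made up 2.08% of the barcodes (exact Clopper-Pearson 95% interval 1.90% to 2.28%) and 0.444% of the UMIs. The mitochondrial share chose them, so their mitochondrial levels are given as a description. The 5 barcodes just inside the limit had shares of 10.0094% to 10.177%, and the 5 just outside had 9.84952% to 9.9734%.

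The cells came from KPCY 6419c5, a mouse pancreatic ductal adenocarcinoma line. They carried the BASELINE lineage-tracing system and had received Cas12a-ABE, an adenine base editor built on Cas12a that writes marks into DNA over time. After transfection, single cells were sorted and grown into clones. The library holds clones 76 and 84, mixed in equal parts once editing had run for 19 days, and was made with 10X Chromium 3′ chemistry. A second pool, of clones 1, 32, 33, 52 and 76, was not analysed here. Every group below is a set of barcodes from that 1 library, and all of them share the line, the editor and the pooling. The line is a tumour line in culture, each clone grew from 1 cell, and no deposited label ties a barcode to its clone.

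With 1 library there is no replicate check. No p-value is given, and all intervals cover counting error only. Levels of nuclear genes are summed UMIs per 1000000 non-mitochondrial UMIs (CPM), so that the mitochondrial share itself does not lower them. A gene was compared where it reached 50 CPM in either set, and a 2-fold difference of summed levels was counted as higher or lower.

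The mitochondrial genome encodes core subunits of the respiratory chain and ATP synthase, and its transcripts are made and translated inside the organelle. Most other messenger RNA is translated in the cytosol, whereas RNAs such as Malat1 and Xist and unspliced pre-mRNA stay in the nucleus. A high mitochondrial share is widely used to filter barcodes in droplet data, because a cell whose outer membrane leaks can lose cytosolic RNA while organelles are held back. This is background, and its part in the values below was not tested.

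High-mitochondrial barcodes were shallow. They held 516995 UMIs in all, 85460 of them mitochondrial and 431535 from other genes. Their median depth was 907 UMIs, and 423 of them lay under 2000 UMIs. Their median mitochondrial share was 16.1%, with 191 barcodes at 10% to 15%, 156 at 15% to 20%, 94 at 20% to 30% and 21 at 30% or more. The highest share was 71.7%. They were set against 236 shallow low-mitochondrial barcodes, with 500 to under 2000 UMIs and under 5% mitochondrial UMIs, and against 21033 deep ones, with at least 2000 UMIs and under 5%. The shallow set had a median of 1456.5 UMIs and the deep set of 4971 UMIs, so the depths of the sets differed even between the shallow and the high-mitochondrial barcodes. The 447 barcodes with 5% to under 10% entered neither set. Scrublet, a doublet caller, marked 0 of the 462 high-mitochondrial barcodes and 840 of all barcodes (3.79%). A count of 0 in 462 barcodes is a call by that tool at low depth and shows nothing about doublets that it cannot see.

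**Figure D1:**
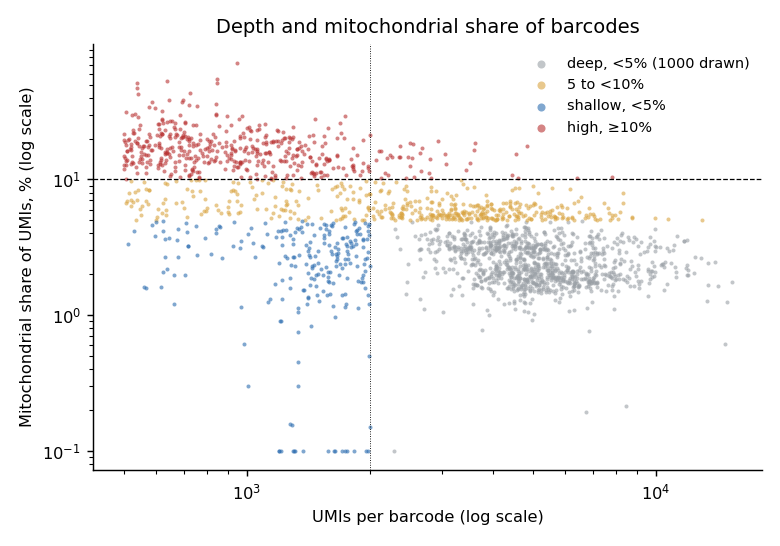
Total UMIs per barcode (x, log scale) against the mitochondrial share of UMIs in percent (y, log scale, shares under 0.1% drawn at 0.1%) for 4 sets of barcodes; the deep set is a random draw of 1000. Of the 462 high-mitochondrial barcodes (red, above the dashed line at 10%), 423 lie left of the dotted line at 2000 UMIs.

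The non-mitochondrial RNA of these barcodes was poor in ribosomal-protein transcripts and rich in transcripts of long genes and in Malat1. Genes for cytosolic ribosomal proteins, the protein part of the translating ribosome, gave 4.75% of non-mitochondrial UMIs in the high-mitochondrial barcodes (95% interval 4.68% to 4.81%). The share was 17.8% in the shallow and 19.0% in the deep low-mitochondrial barcodes. Genes spanning at least 100 kb from the first to the last annotated base gave 27.4% in the high-mitochondrial barcodes, 9.13% in the shallow and 8.11% in the deep set. Genes spanning under 10 kb gave 20.2%, 45.4% and 47.9% in the same order. Malat1, a nuclear long noncoding RNA, gave 2.57% (2.53% to 2.62%), 0.583% (0.557% to 0.610%) and 0.736% (0.734% to 0.737%). In all 4 shares the low-mitochondrial sets differed less from each other than from the high-mitochondrial set.

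Counted per barcode, not as shares, the classes differed unevenly. The median number of mitochondrial UMIs was 157 in the high-mitochondrial barcodes, 123 in the deep set and 34 in the shallow set. Beside the deep set, the high-mitochondrial barcodes had 1.28 times as many mitochondrial UMIs and 6.50-fold fewer non-mitochondrial UMIs (medians 746 and 4848). The sets were defined by limits on total UMIs and on mitochondrial share, so these medians partly follow from the limits. They do not show how the higher share arose. The depth limits also bear on the differences in the classes below, which are given as a description. Of the classes counted, ribosomal-protein UMIs were furthest below the deep set, with a median of 26 against 917, which is 35.3-fold fewer. UMIs of genes under 10 kb had medians of 128 and 2304, UMIs of genes of at least 100 kb 218 and 399, and Malat1 16 and 31. The long-gene and Malat1 medians were thus 1.83-fold and 1.94-fold lower than in the deep set. Against the shallow set they were higher, by 1.82 times for long genes and 3.2 times for Malat1, although the shallow barcodes held more non-mitochondrial UMIs (median 1423.5).

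The ribosomal-protein and long-gene shifts were shared by most of the barcodes, and the Malat1 shift by fewer. The ribosomal-protein share of single high-mitochondrial barcodes ranged from 0% to 16.6% with a median of 3.69%. In the shallow low-mitochondrial barcodes it ranged from 3.63% to 42.4% with a median of 17.3%. It lay under 10% in 442 of 462 high-mitochondrial barcodes (95.7%, interval 93.4% to 97.3%), in 8 of the 236 shallow and in 29 of the 21033 deep ones. Of the high-mitochondrial barcodes, 446 (96.5%) lay under the 5th percentile of the shallow set for ribosomal proteins (10.8%), and 425 (92.0%) lay over its 95th percentile for long genes (15.4%). For Malat1, 311 (67.3%) lay over the 95th percentile (1.36%), and 294 (63.6%) met all 3 limits at once. The Malat1 ranges overlapped more than the others, at few Malat1 molecules per barcode.

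**Figure D2:**
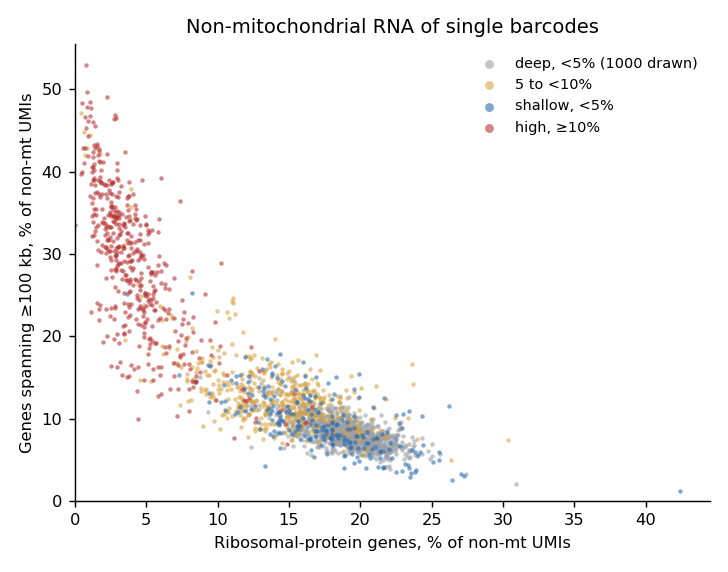
Share of non-mitochondrial UMIs in ribosomal-protein genes (x, %) and in genes spanning at least 100 kb (y, %), 1 point per barcode; the deep set is a random draw of 1000. High-mitochondrial barcodes (red) sit at the upper left, with medians of 3.69% and 29.3%, and the shallow low-mitochondrial barcodes (blue) at 17.3% and 9.14%.

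Both shares changed gradually up to the limit of the rule and steeply across it. The median ribosomal-protein share was 19.2% in barcodes with 2% to 3% mitochondrial UMIs, 17.0% at 4% to 5%, 13.7% at 6% to 8% and 9.89% at 8% to 10%. It was 3.86% at 10% to 15%, 3.45% at 15% to 20% and 3.42% at 20% to 30%. From 10% to 30% the share was nearly level, and the 21 barcodes at 30% or more had a median of 5.43%. The median long-gene share moved the other way, from 7.43% at 1% to 2% through 15.4% at 8% to 10% to 28.1% at 10% to 15% and 29.98% at 15% to 20%. Depth fell along the same axis, from a median of 5039 UMIs at 2% to 3% to 1414 at 8% to 10% and 1059 at 10% to 15%. Within barcodes under 2000 UMIs, where median depth was 1068.5 at 7.5% to 10% and 960 at 10% to 15%, the ribosomal-protein median still went from 10.5% to 3.74%. There, 48.2% of the barcodes at 7.5% to 10% and 94.0% of those at 10% to 15% had under 10% ribosomal-protein UMIs.

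**Figure D3:**
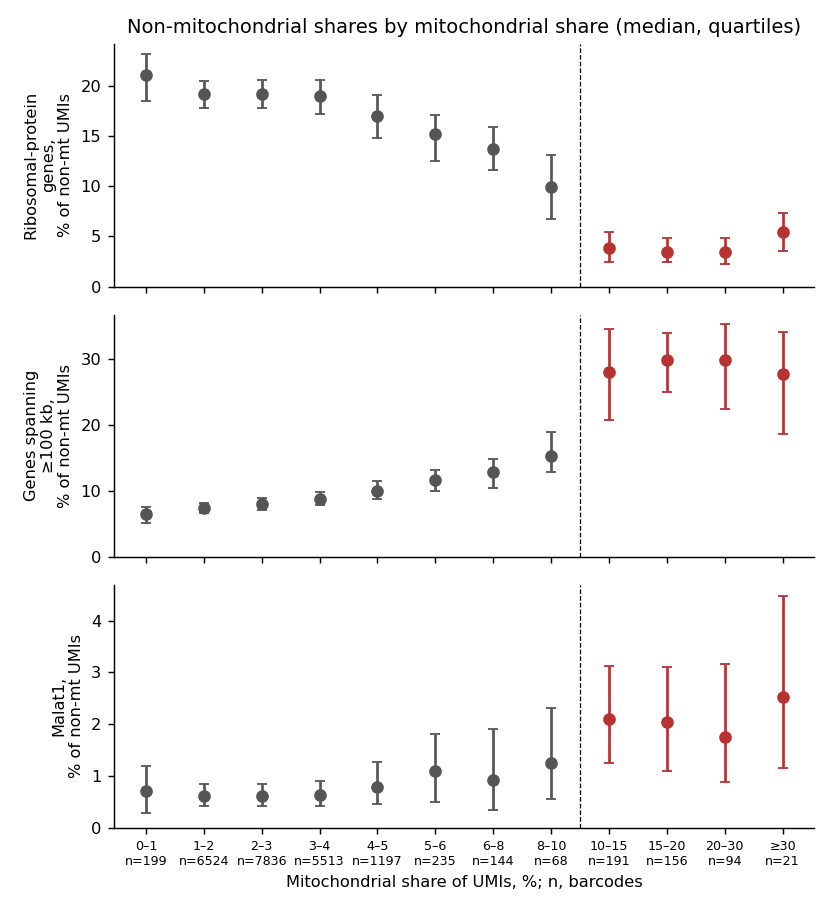
Median and quartiles over barcodes of the ribosomal-protein, long-gene (at least 100 kb) and Malat1 shares of non-mitochondrial UMIs (y, %) by mitochondrial share (x, %), with the number of barcodes under each bin. The high-mitochondrial bins (red, right of the dashed line) have ribosomal-protein medians of 3.42% to 5.43%, against 9.89% at 8% to 10%.

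Mitochondrial share and the nuclear profile did not go together in every barcode. The 20 high-mitochondrial barcodes with at least 10% ribosomal-protein UMIs had a median long-gene share of 12.2%, a median Malat1 share of 0.988% and a median mitochondrial share of 11.3%. These 20 were picked on their ribosomal-protein share, so that share is no finding about them. Conversely, 37 low-mitochondrial barcodes had under 10% ribosomal-protein UMIs. Their median depth was 3841 UMIs, their median Malat1 share 3.05% and their median long-gene share 13.1%. Only 3 of these 37 also reached 20% of UMIs in long genes.

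Single genes differed in both directions once mitochondrial UMIs were set aside. Against the deep set, 2298 of 5278 genes compared were at least 2-fold higher (43.5%) and 871 at least 2-fold lower (16.5%), with a median log2 ratio of 0.76. Against the shallow set, 1989 of 5312 were higher (37.4%) and 859 lower (16.2%), with a median of 0.56. A gene could enter through either set, and 1810 of the 5278 genes, and 1586 of the 5312, did so only through the high-mitochondrial barcodes, where they had to be higher. Among the 3468 genes that reached 50 CPM in the deep set, a limit chosen after seeing the data, 817 were higher (23.6%) and 871 lower (25.1%), with a median of -0.09. Among the 3726 that reached it in the shallow set, 754 were higher (20.2%) and 859 lower (23.1%), with a median of -0.08. The excess of higher over lower genes is thus not seen with that limit, and it is not read as a result. With ratios centred on the median of all genes compared, 19.2% were higher and 29.97% lower against the deep set, and 20.7% and 27.1% against the shallow set. The comparison of the low-mitochondrial sets with each other gave 34 higher genes (0.859%) and 12 lower (0.303%) of 3956. Both comparisons use the same high-mitochondrial barcodes, and 1878 genes were higher and 732 lower in both.

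Gene span ordered these ratios. The median log2 ratio over the deep set was -1.55 for genes under 5 kb, -1.01 at 5 to 10 kb, -0.36 at 10 to 20 kb, 0.67 at 20 to 50 kb, 1.34 at 50 to 100 kb, 1.70 at 100 to 200 kb and 2.07 at 200 kb or more. Of the genes under 5 kb 74.7% were at least 2-fold lower and 0.426% higher, and of those of 200 kb or more 93.9% were higher and 0.253% lower. Of the 396 genes of at least 200 kb, 172 had entered only through the high-mitochondrial barcodes. Among the 224 that reached 50 CPM in the deep set, 92.0% were higher and 0.446% lower, with a median of 1.97. With the same limit 75.3% of the genes under 5 kb were lower, and the median went from -1.55 under 5 kb through 0.13 at 20 to 50 kb to 1.43 at 100 to 200 kb, so the order by span did not rest on the genes that entered only through the high-mitochondrial barcodes. With ratios centred on the median gene of all those compared, the genes of 20 to 50 kb fall slightly below 0 and the other spans keep their direction. Across 5264 genes, which are not independent replicates and share this library's depth, Spearman's rho between span and ratio was 0.77, and it was 0.81 across the 3461 that reached 50 CPM in the deep set. For all genes compared it was 0.74 against the shallow set and 0.33 for the shallow over the deep set. Mature transcript length had a lower rho of 0.63, and the number of exons 0.47. Span and transcript length both ordered the ratios within each other's classes. Among genes under 10 kb, the median was -1.66 for transcripts under 1.5 kb and -0.62 for those of at least 3 kb. Among the genes that reached 50 CPM in the deep set these medians were -1.67 and -0.83, and rho was 0.72 for transcript length and 0.57 for the number of exons. Whether intronic reads entered the counts is not given in the sources used here, and the part of unspliced RNA in these ratios was not tested.

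**Figure D4:**
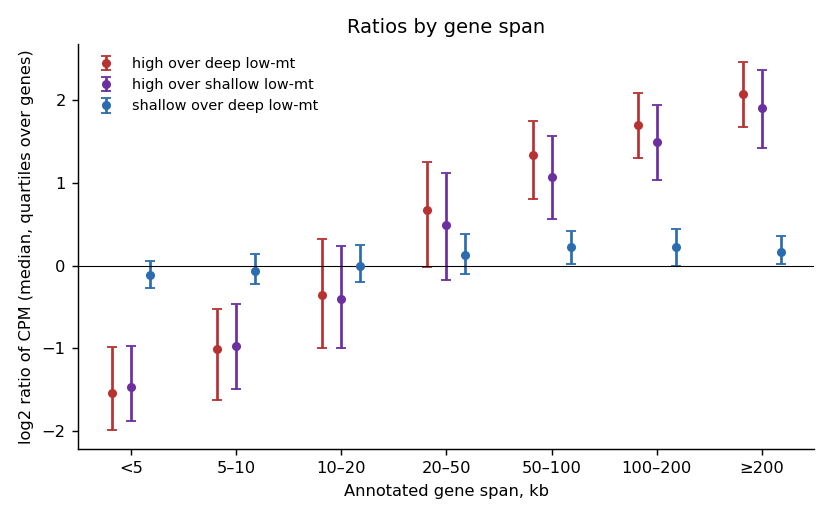
Median and quartiles over genes of the log2 ratio of CPM (y) by annotated gene span in kb (x) for 3 comparisons. The ratio of high-mitochondrial over deep barcodes (red) goes from -1.55 under 5 kb to 2.07 at 200 kb or more, the ratio over shallow barcodes (purple) from -1.47 to 1.90, and the shallow set over the deep set (blue) stays near 0.

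The 5 nuclear-encoded genes with most UMIs in the high-mitochondrial barcodes were Malat1, S100a6, Palld, Xist and Zbtb20. Malat1 stood at 25731 CPM (25255 to 26215), against 5832 CPM in the shallow and 7356 CPM in the deep set, a log2 ratio of 1.81 over the deep set. Xist, the noncoding RNA that coats and silences an X chromosome, stood at 3629 CPM against 690 CPM and 876 CPM. Palld, which encodes the actin-binding protein palladin and spans 391 kb, stood at 3937 CPM against 693 CPM and 769 CPM. Its ratio over the deep set was 5.12-fold. It was smaller within the expression groups described below, at 3.55-fold within side A and 2.99-fold within side B. Zbtb20, a zinc-finger repressor gene spanning 767 kb, stood at 3518 CPM against 588 CPM and 553 CPM. All 4 were at least 2-fold higher than in both low-mitochondrial sets. S100a6, which encodes a small calcium-binding protein, went the other way, at 4034 CPM against 16051 CPM and 19706 CPM.

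The 10 highest ratios over the deep set were mostly those of long genes, but 9 of the 10 genes lay under 50 CPM there and had entered only through the high-mitochondrial barcodes, so their rank is a description. Plcb1 is the 1 that reached it. Robo1, a guidance receptor gene spanning 738 kb, stood at 246 CPM against 21.2 CPM in the deep set, an 11.6-fold difference, and at 21.6 CPM (7 UMIs) in the shallow set. Plcb1, a phospholipase C gene spanning 689 kb and one of the genes of side A, an expression group described below that held most high-mitochondrial barcodes, stood at 901 CPM against 89.5 CPM and, in the shallow set, 108 CPM. Malrd1, Lrrc7, Dip2c, Adamts9 and Ccdc141 had log2 ratios of 3.42 to 3.82 over the deep set and spans of 161 to 729 kb. Rexo5, an RNA exonuclease gene of 54.9 kb, had 3.29. The predicted gene Gm35254 had the highest ratio, 4.30 (58 UMIs). Within side A the ratios over the deep set were smaller, at 6.66-fold for Robo1, 5.44-fold for Plcb1 and a log2 ratio of 3.86 for Gm35254. Plcb1 is one of the genes that place barcodes on the sides, so its value within side A is conditioned on the placement. There the log2 ratios of Malrd1, Lrrc7, Dip2c, Adamts9 and Ccdc141 were 2.51 to 3.01 and that of Rexo5 was 2.74. Within side B, with 42 barcodes and wide intervals, the log2 ratios were larger for Robo1 (4.06, 1.77 to 5.62), Malrd1 (5.77, 0.42 to 8.37), Ccdc141 (5.404, 2.33 to 7.31) and Rexo5 (4.02, 0.96 to 5.89), and the other 5 of the 9 genes had 0 UMIs there. Malrd1 lay under 50 CPM in both sets of side B, so its ratio there is a description only. Genes nested in Dip2c on the same strand, and partners on the opposite strand of several of these genes, make the assignment of their reads uncertain, since strand use is not given in the sources used here.

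Taco1, which encodes an activator of translation of the mitochondrial Co1 message, was high for its short span. It spans 7.55 kb and stood at 426 CPM (367 to 493) in the high-mitochondrial barcodes, 40.0 CPM in the shallow set (13 UMIs) and 40.8 CPM in the deep set. Its level was 331 CPM at a mitochondrial share of 10% to 15%, 504 CPM at 15% to 20% and 563 CPM at 20% or more. It also differed with depth, at 498 CPM in barcodes under 2000 UMIs and 196 CPM (20 UMIs) in those of 2000 or more, and its log2 ratio over the deep set was 2.91 within side A and 4.68 (4.15 to 5.16) within side B, against 3.38 in all barcodes. Taco1 entered only through the high-mitochondrial barcodes. It was among 22 genes under 10 kb that were at least 2-fold higher than in both low-mitochondrial sets, of which Malat1 and ENSMUSG00000095041 alone reached 50 CPM in both low-mitochondrial sets. The other genes had therefore passed the minimum through being high, in at least 1 of the comparisons, and their number is not read as a result. Among the 22 were also Adamts1, a secreted protease gene of side A (227 CPM against 43.1 CPM and 37.6 CPM, which is 6.05-fold the deep level in all barcodes and 3.19-fold within side A), the homeobox gene Hoxb6 (121 CPM against 36.9 CPM and 24.5 CPM) and Hnrnph3, a splicing-related RNA-binding protein gene (90.4 CPM against 24.6 CPM and 31.2 CPM). Adamts1 also helps to place barcodes on the sides, so its value within side A is conditioned on the placement. Genes of at least 100 kb that were 2-fold lower than in both sets numbered 5: Hmgb1, Bri3, Lamb3, Mrc1 and Ostf1. Hmgb1, a chromatin protein gene, stood at 735 CPM against 1509 CPM and 1497 CPM. Not all 5 were lower within the sides: Mrc1 had log2 ratios over the deep set of -0.05 within side A and -0.03 within side B. Lamb3, a gene of side B, had 1.32 (-1.75 to 3.21) within side A and 1.35 (0.35 to 2.19) within side B. Lamb3 helps to place barcodes on the sides, so its values there are conditioned on the placement. Ostf1 had -1.30 within side A and 0.20 within side B, while Hmgb1 (-0.99 and -1.61) and Bri3 (-1.57 and -2.29) were low within both. These exceptions were picked after their values were seen.

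Over the shallow set, the highest ratios rested on 1 to 4 shallow UMIs. Tubgcp5, a gamma-tubulin complex gene, had 43 UMIs against 1, a log2 ratio of 5.02 with a counting interval of 2.46 to 10.4. Tnc, a side A gene encoding the matrix protein tenascin C, had 98 UMIs against 4, a log2 ratio of 4.205 (2.80 to 6.11). Within side A it was 3.13 over the shallow set, and over the deep set 2.22 against 3.08 in all barcodes. Tnc helps to place barcodes on the sides, so its values within side A are conditioned on the placement. Arhgap26, Ccdc141, 2700049A03Rik, Nr6a1os, Cep112, Zfp101, Hoxa3 and Trit1 had 24 to 60 UMIs against 1 or 2. The log2 ratios of these 10 genes to the deep set were 2.13 to 3.42. All 10 lay under 50 CPM in both low-mitochondrial sets and entered both comparisons only through the high-mitochondrial barcodes, so the second comparison adds no support to the first. The intervals are wide, and the order within this group cannot be read from them.

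Many of the lowest ratios were those of short genes or of genes of side B, the other expression group described below. Rnf7, a ubiquitin-ligase subunit gene of 7.74 kb, had 4 UMIs in the high-mitochondrial barcodes, 9.27 CPM (2.53 to 23.7) against 142 CPM in the shallow and 111 CPM in the deep set. Cdk2ap2, of 1.84 kb, had 9.27 CPM against 123 CPM and 98.5 CPM. Rnf7 was 11.9-fold lower than in the deep set, 18.7-fold within side A and 4.01-fold within side B. For Cdk2ap2 these values were 10.6-fold, 10.7-fold and 2.30-fold. On side B both log2 intervals reached above 0, at 0.47 and 0.65. Pold4, a DNA polymerase delta subunit gene, had 0 UMIs, and against a floor of 3 UMIs over the set it was at least 9.37-fold lower than in the deep and at least 8.86-fold lower than in the shallow set. Within the sides the bounds were smaller, at least 2.22-fold lower than the deep set on side A and at least 1.22-fold on side B. Gldc, the glycine decarboxylase gene, which spans 77.0 kb, had 2 UMIs, a log2 ratio of -3.72 to the deep set with an interval of -6.77 to -1.87. Within side A its log2 ratio was -1.88 and within side B -1.87, each with an interval that reached above 0, at 0.61. H1f1, Ly6c1, Gm1673, Dph3 and Serpinb1a had 2 to 5 UMIs each. Lgals2 (122.8 CPM against 1343 CPM and 1633 CPM), S100a7a, Krt7, Anxa10 and Mmp13 were also among the lowest, and all 5 are genes of side B, defined below.

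The high-mitochondrial barcodes did not fall evenly on the expression groups of the pool. Clustering of the deep low-mitochondrial barcodes gave 2 groups, called side A and side B here, with 33 genes at least 10-fold higher in A (among them Pde10a and Plcb1) and 34 in B (among them Lgals2 and Krt7). Sides are defined by expression and are not clone identities. Of the high-mitochondrial barcodes, 361 had the balance of side A, 42 that of side B, 13 lay between and 46 had too few UMIs of these genes. Side A thus held 89.6% of those placed (86.2% to 92.4%), against 49.2% of deep and 45.8% of shallow low-mitochondrial barcodes. In the 447 barcodes with 5% to under 10% mitochondrial UMIs, it held 85.1% of the 397 placed (81.3% to 88.5%). Among all barcodes placed on side A 3.45% (3.10% to 3.81%) had a high mitochondrial share, and on side B 0.412% (0.297% to 0.556%). The median mitochondrial share of deep low-mitochondrial barcodes was 3.17% on side A and 1.89% on side B, so a limit at 10% sits closer to the bulk of side A. The part of this difference in the placement of high-mitochondrial barcodes was not tested. Because long genes were high in these barcodes, the sides were also set from genes of at least 100 kb alone, 13 in A and 10 in B, an alternative chosen after seeing the data. That placed 302 barcodes on side A and 20 on side B (93.8% A), against 51.5% A in the deep set and 64.4% (50.9% to 76.4%) in the shallow set, where 172 of 236 barcodes had too few UMIs of these genes.

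The nuclear profile was present on both sides. On side A, ribosomal proteins gave 4.84% of non-mitochondrial UMIs in the high-mitochondrial barcodes and 19.0% in the deep set, and genes of at least 100 kb 27.9% and 8.90%. On side B, with 42 barcodes, they gave 4.18% and 18.9%, and long genes 25.4% and 7.48%. Malat1 gave 2.55% on side A and 3.32% on side B, against 0.748% and 0.734% in the deep sets. Within side A and without the side genes, 2109 of 5159 genes (40.9%) were at least 2-fold higher and 845 (16.4%) lower than in the deep set. Among the 3558 of these genes that reached 50 CPM in the deep set of side A, 833 were higher and 845 lower. Against the shallow set, 1858 (35.3%) were higher and 873 (16.6%) lower, and with 50 CPM required in the shallow set of side A 695 were higher (18.4%) and 873 lower (23.2%). The low-mitochondrial sets of side A, compared with each other, gave 4.11% higher and 2.74% lower. On side B, 2820 of 5626 genes (50.1%) were higher and 784 (13.9%) lower than in the deep set, from 35016 high-mitochondrial UMIs. Of these genes 2357 had entered only through the high-mitochondrial barcodes, and of the 3269 that reached 50 CPM in the deep set of side B 810 were higher and 784 lower. Lgals2, Krt7 and S100a7a, genes of side B, had other values within side A, but they helped to place the barcodes, so their levels there are conditioned on the placement. Within side A, Lgals2 had a log2 ratio to the deep set of -1.33 against -3.73 in all barcodes, Krt7 of -0.87 against -3.21, and S100a7a, with 8 UMIs in all high-mitochondrial barcodes, of 0.21 (interval -2.84 to 2.08) against -3.62.

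Among lists of genes with a common role, cytosolic ribosomal proteins were lowest. Of 77 compared, 75 were at least 2-fold lower than in the deep set and 0 higher, with a median log2 ratio of -2.08. All 77 reached 50 CPM in the deep set, where the median over all such genes was -0.09, with 25.1% lower and 23.6% higher. That reference also serves the lists below in which all or nearly all members reached it. It stands beside the 16.5% and 43.5% of all genes compared. It does not match the lists in span. With the same limit, 75.3% of genes under 5 kb and 54.6% of those at 5 to 10 kb were lower. Median spans were 3.27 kb for this list, 4.19 kb for the actin and thymosin list and 0.62 kb for all histone genes. The part of span in the list values was not tested. In the shallow comparison 75 of 77 were lower, with a median of -1.97. Rpl13, the member with most UMIs, stood at 1775 CPM against 5786 CPM and 6441 CPM. Rps20 had the lowest ratio to the deep set, -2.92, and Rpl7l1, a ribosome-biogenesis relative, the highest, -0.36. Many of these genes have processed pseudogenes that are nearly identical to them, so single members are uncertain.

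The messages of translation factors and of the cytoskeleton were low as well, where 16.5% of all genes compared were 2-fold lower than in the deep set and 43.5% higher. Of 15 translation factors and related genes, 12 were 2-fold lower than in the deep set (median -1.06). Eef1a1, which delivers tRNAs to the ribosome, stood at 1483 CPM against 3091 CPM and 3010 CPM. Npm1, a nucleolar chaperone, stood at 1613 CPM against 3522 CPM and 4280 CPM, and Tpt1 had a log2 ratio of -2.44. Pabpc1, the cytoplasmic poly(A)-binding protein, had 964 CPM against 1158 CPM and 965 CPM, and Ncl 1916 CPM against 2583 CPM and 2910 CPM. Of 12 actin, thymosin and myosin light chain genes, 9 were lower (median -1.41). Actb stood at 2598 CPM against 8917 CPM and 5603 CPM, and Tmsb4x, which binds actin monomers, at 424 CPM against 2777 CPM and 2721 CPM. Neither list had a member 2-fold higher.

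Nuclear genes for mitochondrial proteins were mostly low, unlike the mitochondrial genome's own transcripts, which the rule selected for. Of 41 nuclear genes of oxidative phosphorylation compared, 34 were at least 2-fold lower than in the deep set and 0 higher (median -1.61), beside 16.5% lower and 43.5% higher over all genes compared, and 32 of 41 were lower than in the shallow set (median -1.47). Cox4i1, a cytochrome c oxidase subunit, stood at 505 CPM against 1035 CPM and 1229 CPM, and the complex III subunit Uqcr10 had the lowest ratio, -2.64. Sdha, a complex II subunit and the 1 member that entered only through the high-mitochondrial barcodes, was the highest at 0.74. Of 69 genes for mitochondrial ribosomal proteins, 43 were lower and 0 higher (median -1.26). Mrps6 stood at 299 CPM against 234 CPM and 283 CPM. These lists consist largely of short genes, with median spans of 5.99 kb and 7.90 kb.

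The regulators of mitochondrial gene expression lay in both directions. Of 8 compared with the deep set 3 were higher and 3 lower, beside 43.5% and 16.5% of all genes compared, and of the higher ones Nrf1 and Ppargc1a entered only through the high-mitochondrial barcodes, so that 1 of the 6 that reached 50 CPM in the deep set was higher. Nrf1, a transcription factor for nuclear genes of respiration, stood at 188 CPM against 61.6 CPM and 45.2 CPM. Ppargc1a, its coactivator PGC-1alpha, stood at 109 CPM against 40.0 CPM and 21.3 CPM, and Lrpprc, which stabilises mitochondrial messages, at 185 CPM against 49.3 CPM and 69.3 CPM. Lower by 2-fold or more were Slirp, the partner of Lrpprc (27.8 CPM against 135 CPM in each low-mitochondrial set), Mrpl12 and Mrpl20. Tfam and Mrps15 were at -0.83 and -0.87. The 3 higher members span 105 kb (Nrf1), 113 kb (Ppargc1a) and 85.5 kb (Lrpprc), and Slirp spans 8.31 kb.

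Stress lists held few members that were 2-fold higher than in the deep set, to which the counts here refer, beside 43.5% higher and 16.5% lower over all genes compared. Of 8 mitochondrial chaperone, protease and mitophagy genes, 0 were 2-fold higher and 1 was lower, Hspe1 (424 CPM against 1152 CPM and 1231 CPM). Hspd1, its chaperonin partner, stood at 1073 CPM against 1549 CPM and 1574 CPM, and Hspa9 had a log2 ratio of -0.22. Of 7 genes of the integrated stress response, 0 were higher and 2 lower, Phgdh and Cebpb, while Atf4 stood at 67.2 CPM against 160 CPM and 102 CPM. Against the shallow set, Gdf15, a gene of side A, was higher (95.01 CPM against 40.0 CPM). Gdf15 entered that comparison only through the high-mitochondrial barcodes, and 0 of the 6 members that reached 50 CPM in the shallow set were higher. Of 13 endoplasmic reticulum chaperones, 0 were higher and 3 lower, Manf, Creld2 and Sdf2l1. Hspa5, the main chaperone of that list, stood at 765 CPM against 801 CPM and 774 CPM. Of 9 heat shock genes, Bag3 was higher (69.5 CPM against 36.9 CPM and 30.9 CPM) and 0 were lower. Of 7 immediate early genes, 0 were higher and Ier3 and Klf4 were lower. Bag3 entered only through the high-mitochondrial barcodes. Nearly all members of these lists reached 50 CPM in the deep set, where 25.1% of genes were lower. The medians of these lists were -0.60 to -0.14, against 0.76 over all genes compared and -0.09 over those that reached 50 CPM in the deep set.

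Of 7 genes of p53 response and apoptosis, again against the deep set, Apaf1, the apoptosome scaffold (104 CPM against 33.9 CPM and 22.1 CPM), Bcl2l11, encoding the killer protein BIM (69.5 CPM against 12.3 CPM and 10.1 CPM), and Bcl2l1, encoding BCL-XL, which opposes death (134 CPM against 52.3 CPM and 43.7 CPM), were higher. Bax, which permeabilises the outer mitochondrial membrane, was lower (92.7 CPM against 259 CPM and 245 CPM). The 3 higher members all entered only through the high-mitochondrial barcodes, and 3 of 7 is close to the 43.5% of all genes.

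The lists of oxidative stress defence and of glycolysis and hypoxia had more lower than higher members, where all genes compared had 43.5% higher and 16.5% lower. Of 12 genes of oxidative stress defence, Gclc, the catalytic subunit for glutathione synthesis, was higher (262 CPM against 77.0 CPM and 65.6 CPM). Gpx4, Fth1, Gpx1, Prdx1, Txn1 and Ftl1 were 2-fold lower than in the deep set. Gpx4, which protects membranes from lipid peroxides, stood at 171.5 CPM against 911 CPM and 889 CPM. Of 15 glycolysis and hypoxia genes, Vegfa, which entered only through the high-mitochondrial barcodes, was higher (1.20), and Gapdh, Pgk1, Pgam1, Aldoa and Tpi1 were lower, with Gapdh at 802 CPM against 2349 CPM and 2854 CPM. Ferritin genes and Gapdh have close pseudogene copies.

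The cell-cycle lists held smaller shares of genes past 2-fold in each direction than the 43.5% higher and 16.5% lower of all genes compared. Of 32 genes of S phase, 7 were higher and 2 lower than in the deep set (median 0.30), and of the 24 that reached 50 CPM there 2 were higher and 2 lower (median -0.04). Pola1, the catalytic subunit of DNA polymerase alpha, stood at 243 CPM against 55.4 CPM and 63.9 CPM, whereas Mcm4, a replicative helicase subunit, stood at 199 CPM against 197 CPM and 182 CPM. Of 47 genes of G2 and mitosis, 9 were higher and 4 lower (median 0.47), and of the 40 that reached 50 CPM in the deep set 4 were higher and 4 lower (median 0.31). The medians lie under that of all genes compared (0.76) but above that of all genes with the same limit (-0.09). Top2a had 904 CPM against 477 CPM and 622 CPM, and Hjurp, a centromere chaperone, the highest ratio, 1.74. The 4 lower members, Birc5, Cks2, Cks1b and Tubb4b, all span under 10 kb. Of 15 histone genes, 9 were lower and 0 higher (median -1.47), led by H1f1, and H2az1 stood at 667 CPM against 2891 CPM and 3176 CPM. Near-identical copies make single histone genes uncertain.

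**Figure D5:**
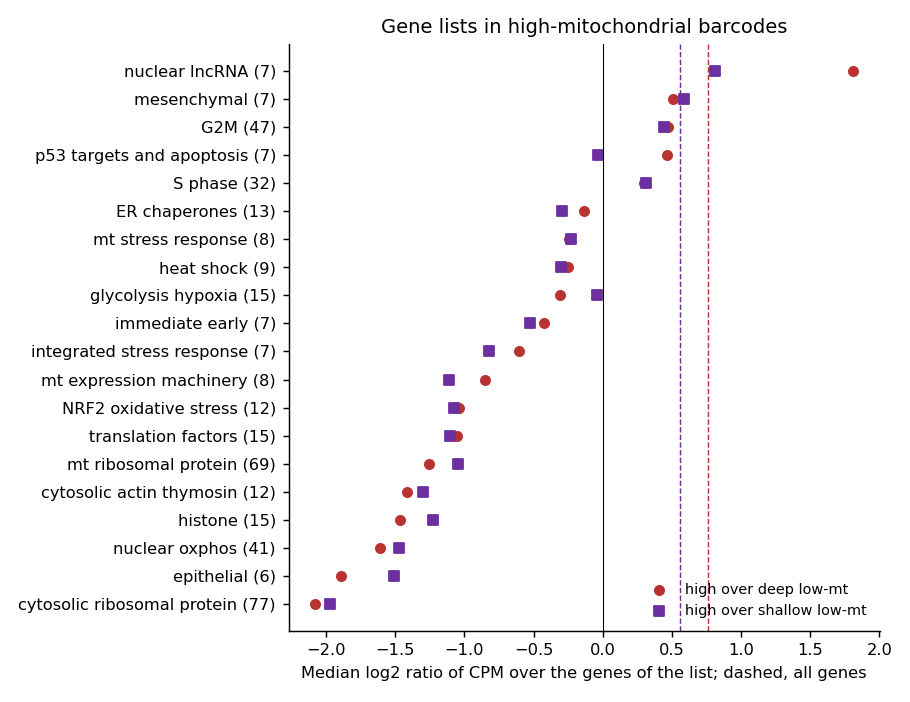
Median log2 ratio of CPM (x) of each gene list with at least 6 genes compared (y, number of genes in brackets), for high-mitochondrial over deep (red circles) and over shallow low-mitochondrial barcodes (purple squares); dashed lines mark the medians of all genes that reached 50 CPM in either set, 0.76 and 0.56. Cytosolic ribosomal proteins are lowest, at -2.08 and -1.97, and the highest against the deep set, at 1.81, is the value of Malat1 in a list of 7 noncoding RNAs and host genes with 4 higher and 3 lower members.

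Long noncoding RNAs lay in both directions. Of 83 compared, 73.5% were at least 2-fold higher than in the deep set and 12.0% lower, beside 43.5% and 16.5% of all genes compared, but 47 of the 83 had entered only through the high-mitochondrial barcodes. Of the 36 that reached 50 CPM in the deep set, 15 were higher and 10 lower (41.7% and 27.8%), with a median log2 ratio of 0.33, beside 23.6% and 25.1% of all genes with the same limit. In the list of 7 nuclear noncoding RNAs and snoRNA host genes, Malat1, Neat1, Xist and Kcnq1ot1 were higher. Neat1, the scaffold of paraspeckles, stood at 454 CPM against 102 CPM and 112 CPM, and Kcnq1ot1, an imprinted silencing RNA, at 948 CPM against 135.5 CPM and 167 CPM. Gas5, Snhg1 and Snhg3, spliced host genes of small nucleolar RNAs, were lower, with log2 ratios of -1.33, -1.73 and -1.02. The list therefore holds members of both directions.

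Epithelial and mesenchymal genes were both detected in these barcodes, with 639 UMIs over 10 epithelial genes, 2 of them at 0, and 1121 UMIs over 10 mesenchymal genes. Krt18, Krt8 and Krt19, keratins of simple epithelia, were detected with 235, 183 and 122 UMIs, at levels below those of both low-mitochondrial sets. Of 6 epithelial genes compared, 5 were 2-fold lower than in the deep set (median -1.89), and Cdh1, E-cadherin, stood at 74.2 CPM against 86.2 CPM and 78.3 CPM. Within side A 3 of 4 were lower and 0 higher (median -1.32), and within side B 2 of 5 were lower and 1 higher (median -0.83). Of all genes compared, 16.4% were lower and 40.9% higher on side A, and 13.9% lower and 50.1% higher on side B. On side A 1 of the 4 entered only through the high-mitochondrial barcodes. Of 7 mesenchymal genes, Zeb1 (508 CPM against 83.1 CPM and 98.7 CPM), Zeb2 (which entered only through the high-mitochondrial barcodes) and Fn1 were higher, Vim and S100a4 were lower, and Cdh2 had a log2 ratio of 0.51, which is the median. Within side A 4 of 7 were higher and 1 lower (median 1.53), beside 40.9% and 16.4% of all genes compared there. Of these 7, 2 entered only through the high-mitochondrial barcodes. Of the 5 that reached 50 CPM in the deep set of side A, 2 were higher and 1 lower (median -0.17). The 3 of 7 higher mesenchymal genes are near the 43.5% of all genes compared, and the 5 of 6 lower epithelial genes stand beside 16.5%. All 6 epithelial genes reached 50 CPM in the deep set, where 25.1% of genes were lower, and Krt7 is a gene of side B. The median span of the epithelial list is 6.66 kb. With the same limit, 54.6% of all genes of 5 to 10 kb were lower. Markers of other cells were nearly absent. The 462 barcodes together held 1 UMI over 10 immune genes, 1 over 6 erythroid genes, 3 over 8 acinar genes, 0 over 7 endocrine genes and 10 over 7 endothelial genes. Of 44 UMIs over 8 fibroblast genes, 43 were Acta2, smooth muscle actin, which is a gene of side A. Ptprc, Lyz2, Pecam1, Col1a1 and Ins1 were at 0 UMIs.

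Within the mitochondrial RNA, the rule fixed the total and not the balance of its 13 genes. The mt-Co1 message, for the catalytic subunit of cytochrome c oxidase, gave 10.3% of mitochondrial UMIs in the high-mitochondrial barcodes (10.1% to 10.5%), 14.6% in the shallow set (13.9% to 15.4%) and 13.3% in the deep set (13.3% to 13.4%). The lower mt-Co1 share was seen on both sides, at 10.4% against 14.0% in the deep set on side A and 9.35% against 12.5% on side B. It was 10.5% at a mitochondrial share of 10% to 15% and 9.89% at 20% or more. The mt-Nd1 message, for a complex I subunit, went the other way, at 12.1% (11.8% to 12.3%) against 10.1% and 10.6%. The mt-Cytb share, of complex III, was 11.2% against 9.78% and 10.4%, and the mt-Nd4 share was 9.29% against 8.32% and 8.33%. On side B mt-Nd1 was also higher than in the deep set (12.5% against 11.3%), whereas mt-Nd4 was at 8.03% (7.38% to 8.71%) against 8.14% and the interval of mt-Cytb (9.72% to 11.2%) held the deep value of 10.1%. The mt-Nd5 share was lower than in both sets (1.79% against 2.33% and 2.20%), though on side B its interval (1.33% to 1.95%) held the deep value of 1.89%. The mt-Co3 share was lower than in the deep set (17.4%) but close to the shallow one (14.7% and 15.01%). The shares of mt-Co2, mt-Atp6, mt-Atp8, mt-Nd4l and mt-Nd6 lay within the counting intervals of the shallow set, where mt-Nd6 had 12 UMIs. Against the deep set, mt-Co2 (15.7% against 14.5%), mt-Atp6 (15.02% against 13.5%), mt-Atp8 (0.563% against 0.436%) and mt-Nd6 (0.0889% against 0.0591%) were higher. The mt-Nd4l share was lower (1.61% against 1.83%). The high-mitochondrial intervals of these genes did not hold the deep values, but on side B those of mt-Atp8 and mt-Nd4l did. The mt-Nd2 share was 6.48%, against 5.87% and 6.12%, and the mt-Nd3 share 1.21%, against 1.65% and 1.27%.

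At equal depth the high-mitochondrial barcodes held more kinds of RNA, not fewer. Thinned to 400 non-mitochondrial UMIs, they had a median of 358 genes (447 barcodes, with 15 too shallow left out), against 329 in the shallow set and 326 in 2000 barcodes drawn from the deep set. Unthinned, the medians were 631, 916.5 and 2211 genes. Depth also moved with the profile inside the set: the median ribosomal-protein share of barcodes was 3.35% under 1000 UMIs, 4.19% at 1000 to under 2000 and 4.60% at 2000 or more. All 3 lie under the medians of both low-mitochondrial sets.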

How the data were processed

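The deposited matrix holds UMI counts per gene and barcode as the authors' pipeline gave them. Per the submitters' processing notes it was made with Cell Ranger 8.0.1 on GRCm39, while the counting of intronic reads and the use of strand are not given in the sources used here. All 22178 deposited barcodes were kept, and no further filter was set on cells. Counts were summed over each set and divided by its non-mitochondrial UMIs. Genes with at least 50 CPM in either set (as an added alternative, in the low set) were compared, with 2-fold as the limit and a floor of 3 counts for a set at 0. Intervals are exact Poisson or Clopper-Pearson at 95%. The comparison was tested on simulated data first. Gene spans came from GENCODE release M21, matched by Ensembl ID for 32012 of 33696 features. M21 is on another build, so spans are used as a property and no coordinates are given. Sides were set by k-means (2 groups, 30 principal components of 2000 variable genes) in scikit-learn 1.9.0. A barcode was placed with at least 3 UMIs of side genes and at least 80% of their balance on 1 side. For the balance, the UMIs of each side's genes were first divided by the summed level of those genes in that side's group. Doublets were marked with Scrublet in scanpy 1.11.5, and marked barcodes were kept. Named genes were the 13 mitochondrial genes, the 10 highest and lowest ratios in each comparison, the 5 genes with most UMIs, and, from each list, members with most UMIs or past 2-fold, as examples in the longer lists. The members and lists were chosen with earlier results of these data known.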

Additional observations from a re-analysis of the deposited data

How the results depend on the processing

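The share of barcodes with a high mitochondrial share was 2.39% at a minimum of 8%, 1.22% at 15% and 0.519% at 20%. Genes higher than in the deep set numbered 3508 at a minimum of 20 CPM, 1346 at 100 CPM and 1013 with ratios centred on the median gene. The centred count of lower genes was 1582. Genes higher than in the shallow set numbered 3065 at 20 CPM, 1183 at 100 CPM and 1101 when centred, and the centred count of lower genes was 1437. The expression minimum changed the number of genes compared, and the share that was higher stayed at 42.7% and 43.7% against the deep set and at 36.9% and 38.6% against the shallow set. With 50 CPM required in the low set, the genes higher numbered 817 against the deep and 754 against the shallow set, and 1810 and 1586 genes that had entered only through the high-mitochondrial barcodes were no longer compared. For the placement on side A, genes of at least 100 kb gave 93.8%. The log2 ratio of S100a7a to the deep set was 0.21 (interval -2.84 to 2.08) within side A, so its direction there is not resolved. S100a7a helped to place the barcodes, so this value is conditioned on the placement. The cause of its difference from the value in all barcodes was not tested. Over the alternatives, 105 values of named genes against the deep set left their counting interval and 194 did not, and 47 and 253 against the shallow set. Of list medians 51 moved by 0.25 or more against the deep set and 189 did not, and 58 and 182 against the shallow set. Lamb3 had 1.32 (-1.75 to 3.21) within side A, a value that is also conditioned on the placement. The within-side alternative, the minimum in the low set and the long-gene sides were added once the data had been seen. The other counts of genes stayed within 1.5 times under another mitochondrial minimum or maximum, equal weight per barcode, Malat1 left out of the total, doublets left out, matched depth and sides weighted equally. Depth limits genes with few UMIs in the shallow set (324770 non-mitochondrial UMIs), and 1 library gives no spread between samples.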
